A study of Mus musculus with 4 samples.

Results

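Transcripts of 10 genes that mark stomach and intestine were followed in 4 mouse lung tumours. The genes were Hnf4a, Gkn1, Gkn2, Tff1, Tff2, Tff3, Fcgbp, Gpa33, Guca2a and Lgals4, found by symbol in the count table, which lists 39017 genes. They were chosen by their counts in these same tumours, because several of them, Tff3, Gkn1, Fcgbp, Gpa33 and Guca2a, were high in some tumours and near 0 in others. Their levels are therefore given as a description without a test.

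The tumours formed 1 group, Control, and no treatment was compared. They were lung tumours of male KP mice (K-rasLSL-G12D/WT; p53Fl/Fl) on the C57BL6/J background, in which 1500 viral units of lenti.PGK-Cre given into the trachea switch on mutant K-ras and delete p53. The PGK promoter is active in most cell types, so recombination was not restricted to a chosen lung cell. Tumours were macrodissected 22 weeks and 5 days after initiation and dissociated, and their RNA was sequenced without removing immune or stromal cells. The labels call the genotype "heterozygous fl/wt" without naming the gene, while the columns of the deposited log2 table are marked WT, and in the study's methods control mice carried either no floxed Slc2a1 allele or 1 of them. The labels do not say whether the 4 tumours came from different mice. Any p-value therefore applies to these 4 samples only, and sets their counts against counting error alone. The samples are called tumours 1 to 4 after the replicate number in the labels.

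As background, the lung buds from the foregut, the same embryonic tube that gives rise to the stomach and, further along, the intestine. In mouse lung adenocarcinoma, loss of the lung regulator Nkx2-1 is known to be followed by expression of gastric genes, with Hnf4a among the regulators that drive the gut programme. Gastrokines (Gkn) and trefoil factors (Tff) are small secreted proteins of the gastric and intestinal mucus layer. Fcgbp is a large protein of intestinal mucus, Gpa33 is a surface antigen of intestinal epithelium, Guca2a encodes the gut peptide guanylin and Lgals4 encodes a galectin of gut epithelium.

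The gastrokine genes Gkn1 and Gkn2 lie near each other on chromosome 6. By the values below, Gkn2 was abundant in every tumour and Gkn1 nearly absent from a tumour, and Guca2a was high in 1 tumour only. For these 3 genes the 250 bases before the RefSeq transcript start are shown, read in the direction of the gene (RefSeq, GRCm38.p6). The windows are chr6:87350916-87351165 on the minus strand for Gkn1, chr6:87373115-87373364 on the plus strand for Gkn2 and chr4:119637482-119637731 on the plus strand for Guca2a. Capitals mark matches to the motifs described next.
Gkn1: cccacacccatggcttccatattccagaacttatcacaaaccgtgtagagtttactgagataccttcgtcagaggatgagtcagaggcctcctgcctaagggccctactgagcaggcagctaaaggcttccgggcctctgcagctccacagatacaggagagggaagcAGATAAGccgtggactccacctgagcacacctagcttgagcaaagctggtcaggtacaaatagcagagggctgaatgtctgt
Gkn2: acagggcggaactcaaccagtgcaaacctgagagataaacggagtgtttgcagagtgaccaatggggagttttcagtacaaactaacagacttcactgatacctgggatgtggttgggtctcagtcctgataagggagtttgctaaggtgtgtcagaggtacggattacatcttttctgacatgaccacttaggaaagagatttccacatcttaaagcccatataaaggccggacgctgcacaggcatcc
Guca2a: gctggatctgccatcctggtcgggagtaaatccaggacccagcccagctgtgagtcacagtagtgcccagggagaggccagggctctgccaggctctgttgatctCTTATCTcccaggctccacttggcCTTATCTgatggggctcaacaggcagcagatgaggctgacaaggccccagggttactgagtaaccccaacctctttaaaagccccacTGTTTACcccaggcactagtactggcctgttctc

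Each motif was searched on both strands in windows of 300 bases, from 250 before to 50 after the start. Of the 10 genes, 7 had such windows, 8 in all because Hnf4a had 2 of them. The share of all 32851 mouse windows that hold a motif was 0.475% for the HNF4 motif CAAAGTCCA and 0.478% for its other form CAAAGGTCA. It was 3.65% for the FOXA motif TGTTTAC, 3.06% for the NKX2-1 motif TCAAGTG, 2.75% for the CDX motif TTTATGG and 3.04% for the GATA motif AGATAAG. Among the members, Gkn1 held a GATA match at positions -82 to -76 from the start. Guca2a held GATA matches on the reverse strand at -145 to -139 and -121 to -115 and a FOXA match at -34 to -28. No matched stretch overlapped another. The windows of Hnf4a, Gkn2, Fcgbp, Gpa33 and Lgals4 held none of these letters, which says nothing of whether the factors act on them.

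Total counts per tumour were between 8151613 and 8799007. Values are given as CPM, the count of a gene in every 1000000 counts of its library after adjustment of library sizes. A count of 3, taken as the floor of detection, was 0.330 to 0.370 CPM, and a count of 0 allows up to that level at a one-sided 95% limit. Reads carried no molecular identifiers, so the intervals given below cover counting error only. In bulk tumours, fewer cells that express a gene and less RNA of it per cell cannot be told apart.

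Hnf4a encodes a nuclear receptor that regulates genes of gut, liver and kidney epithelium. Its position is chr2:163506808-163572910, plus strand (GRCm38, as for all positions here). It reached 152, 130.4, 22.3 and 123 CPM in tumours 1, 2, 3 and 4, from 181 to 1378 counts (mean 107 ± 57.6, SD, n = 4). Tumours 1, 2 and 4 lay close together and tumour 3 was far below them, 6.79-fold under the highest (95% exact interval 5.81 to 7.97). The antisense gene Hnf4aos and the small RNA gene Gm25881 lie within it and had 0 counts in all 4 tumours.

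Gkn1 and Gkn2, the gastrokines of the stomach surface epithelium, lie 22415 bp apart on opposite strands, Gkn1 at chr6:87345650-87350942 (minus) and Gkn2 at chr6:87373357-87379497 (plus). Gkn1 reached 39.7, 6.62, 0.123 and 3.45 CPM in tumours 1 to 4, from 361, 57, 1 and 29 counts (mean 12.5 ± 18.4, SD, n = 4). Tumour 1 stood above the rest and tumour 3 had a single read, and the ratio of tumour 1 to tumour 3 was 322 with a counting interval of 57.4 to 12748. Gkn2 reached 851, 1197, 681 and 553 CPM (mean 820.4 ± 279, SD, n = 4). It was abundant in every tumour, and its highest value, in tumour 2, was 2.16-fold its lowest, in tumour 4 (2.09 to 2.24). Gkn3, the third gastrokine gene of mouse, lies 3759 bp from Gkn2 and reached 3.30, 11.7, 3.83 and 4.52 CPM. Antxr1, 9829 bp beyond Gkn1, reached 217, 252, 98.4 and 224 CPM and was lowest in tumour 3, as was Gkn1 but not Gkn2. The gastrokine neighbourhood thus held genes with unlike patterns over the same 4 tumours.

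The trefoil factor genes, whose products protect and repair mucosa, sit in a row on the minus strand of chromosome 17. Tff3 lies at chr17:31125306-31129646, Tff2 at chr17:31141049-31144282 and Tff1 at chr17:31161395-31165277, with 11403 bp between Tff3 and Tff2 and 17113 bp between Tff2 and Tff1. No 2 of them had the same pattern. Tff1, a trefoil factor of the gastric surface, reached 29.0, 5.23, 1.85 and 19.9 CPM (mean 14 ± 12.7, SD, n = 4). It was high in tumours 1 and 4 and low in tumours 2 and 3, and tumour 1 exceeded tumour 3 by 15.7-fold (9.34 to 28.4). Tff3, the trefoil factor of intestinal goblet cells, had 0, 632, 6 and 0 counts, which is 73.4 CPM in tumour 2 and 0.740 CPM in tumour 3. Tumour 2 was at least 222-fold above tumour 1, taking 3 counts per library as the floor, and the exact two-sided 95% limit of that ratio was 180.3. Tff2, which marks gastric neck and spasmolytic cells, had 1, 0, 1 and 0 counts and was at or under the floor in every tumour, so no fold is given. Tff1 overlaps exons of the antisense gene Gm15318, which had at most 3 counts in any tumour, and how the authors' counting treated strand is not given in the sources used here. Abcg1, 7318 bp from Tff3 on the other side, reached 17.5, 16.0, 42.9 and 25.1 CPM, and so was not high in tumour 2.

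Fcgbp, at chr7:28071236-28120862 on the plus strand, had 2, 540, 3 and 10 counts, which is 0.220, 62.7, 0.370 and 1.19 CPM (mean 16.1 ± 31.1, SD, n = 4). As for Tff3, tumour 2 held nearly all of its reads, and its ratio to tumour 1 was 285 with a counting interval of 78.5 to 2360. Guca2a, whose product guanylin activates the intestinal guanylate cyclase receptor Gucy2c, lies at chr4:119637704-119639471, plus strand. It reached 5.83, 63.9, 8.64 and 7.02 CPM (mean 21.3 ± 28.4, SD, n = 4), so tumour 2 was 11.0-fold above the lowest (8.25 to 14.8) but no tumour lacked the transcript. Guca2b, the uroguanylin gene 17136 bp away, had at most 2 counts in any tumour.

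Gpa33, at chr1:166130238-166166510 on the plus strand, reached 37.9, 57.3, 0.123 and 13.7 CPM, from 344, 493, 1 and 115 counts (mean 27.2 ± 25.4, SD, n = 4). It was present in 3 tumours and had a single read in tumour 3, with a ratio of tumour 2 to tumour 3 of 464 and a counting interval of 82.9 to 18366. Lgals4, at chr7:28833854-28841708 on the plus strand, had the narrowest range of the 9 detected genes, followed by Gkn2. It reached 14.5, 22.0, 21.3 and 30.2 CPM (mean 22.0 ± 6.42, SD, n = 4), and tumour 4 was 2.08-fold above tumour 1 (1.68 to 2.59).

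**Figure D1:**
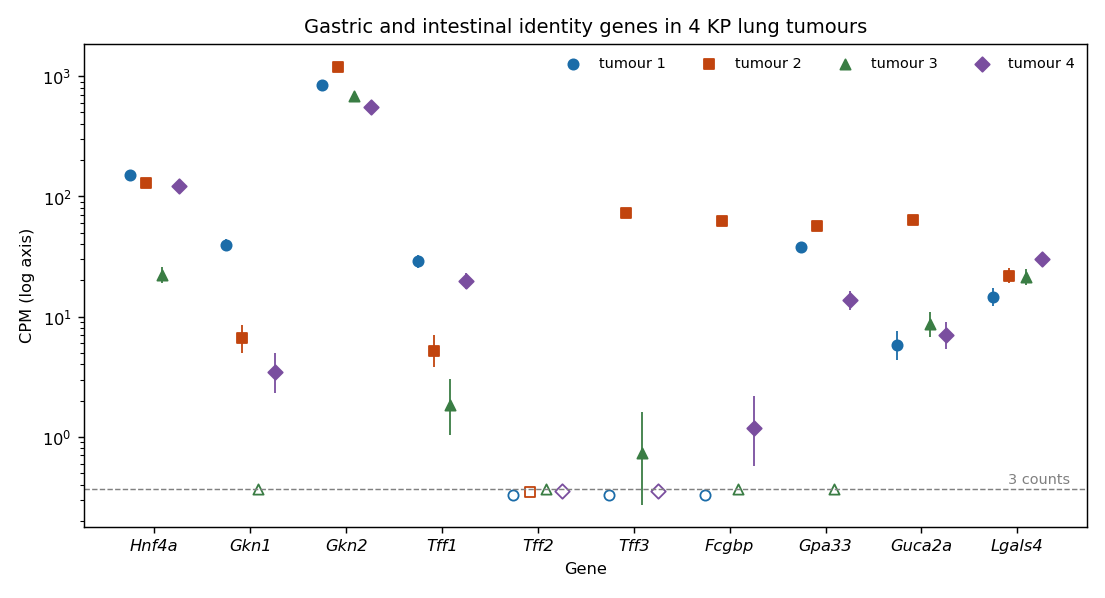
CPM on a log axis for each of the 10 genes in each of the 4 tumours, with 95% Poisson intervals for counting error and a dashed line at the highest floor of 3 counts, where values at or under the floor of their own library are drawn open at it. Hnf4a, Gkn1 and Gpa33 dip in tumour 3, Tff3, Fcgbp and Guca2a peak in tumour 2, and Gkn2 and Lgals4 stay within 2.16-fold.

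Of the 10 genes, 9 averaged 1 CPM or more, and Tff2 did not. The highest tumour exceeded the lowest by 4-fold or more for 7 of these 9, where 8.15% of the 14225 genes averaging 1 CPM or more did (counts under the floor were raised to it). On that scale, which is lower than the ratios to single reads above, the ranges were 107-fold for Gkn1, 155-fold for Gpa33, 190.0-fold for Fcgbp and 222-fold for Tff3. The median range on the log2 scale was 3.97 for the 9 genes and 0.66 for the 14225. Since the genes had been chosen for such ranges, nothing follows from this contrast. 5 of the 9, Hnf4a, Gkn2, Tff1, Guca2a and Lgals4, were above the floor in every tumour, as were 97.9% of the 14225.

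The ranges did not come from a single tumour. Tumour 2 was at least 4-fold above every other tumour for Tff3, Fcgbp and Guca2a, a pattern shown by 0.239% of all genes tested. Tumour 3 was at least 4-fold below every other tumour for Hnf4a, Gkn1 and Gpa33, a pattern of 0.808%. Tumour 1 was at least 4-fold above every other for Gkn1, a pattern of 0.394%. For 0 members was tumour 3 or 4 alone as high (0.239% and 0.0773% of all genes), or tumour 1, 2 or 4 alone as low (0.366%, 0.0633% and 0.0633%). Without tumour 2 the count of genes with a 4-fold range was 4, and without tumour 3 it was 6, with a log2 range for Hnf4a of 0.31 in place of 2.76.

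**Figure D2:**
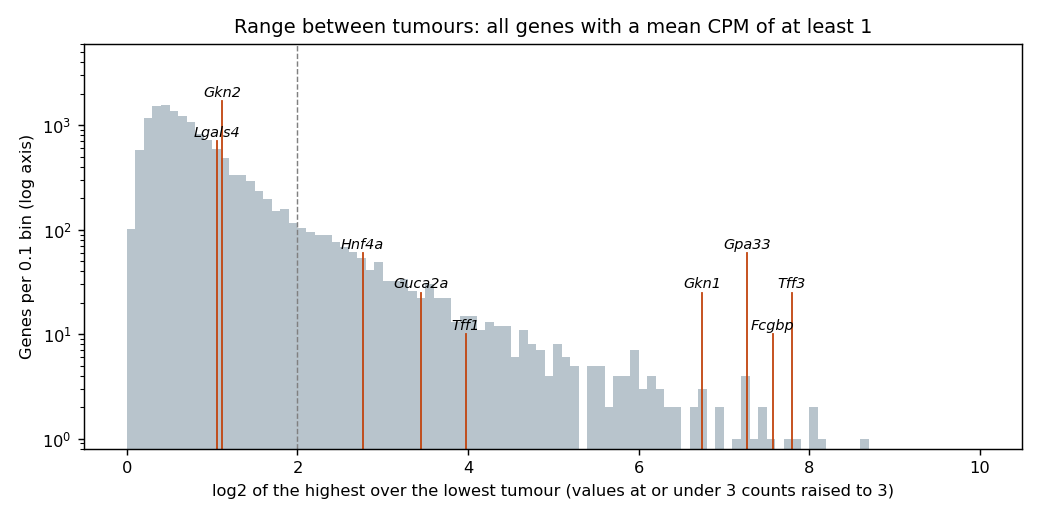
Number of genes, on a log axis, by the log2 range between the highest and lowest tumour, for the 14225 genes averaging 1 CPM or more, with the 9 gut identity genes as lines (heights only place the names) and a dashed line at 4-fold. The median gene lies at 0.66, Lgals4 and Gkn2 lie near 1 and Tff3 lies at 7.80.

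TPM, in which the counts of each gene are divided by its exon length before scaling to 1000000, set the genes in order of abundance. Gkn2 came top with 3417 ± 1141 TPM (SD, n = 4) and ranked 10 of 14100 genes by mean TPM. Tff3 followed with 121 ± 239 TPM and Guca2a with 116 ± 154 TPM, both carried by tumour 2, where they stood at 480.1 and 347 TPM. Hnf4a had 72.8 ± 39.9 TPM, Tff1 66.1 ± 61.2 and Gkn1 33.6 ± 50.03. Gpa33 and Lgals4 were near Gkn1 with 32.6 ± 30.2 and 31.1 ± 8.62 TPM. Fcgbp, the longest of the transcripts, fell to 4.95 ± 9.54 TPM, and Tff2 was last with 0.333 ± 0.385 TPM.

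Neighbours in this order were taken to differ where the upper gene was ahead in each of the 4 tumours by a log2 difference whose mean exceeded its SD. For this comparison, counts under 3 were raised to 3 and divided by exon length. The rule held for Gkn2 above Tff3 (8.27 ± 3.34), for Tff1 above Gkn1 (1.84 ± 1.63) and for Lgals4 above Fcgbp (5.80 ± 3.46). Tff3, Gkn1 and Fcgbp were at or under the floor in some tumours, so these differences and SDs were set in part by the floor. The other 6 neighbouring pairs did not differ beyond their spread. The order of Tff3, Guca2a, Hnf4a and Tff1 among themselves was thus not resolved by these 4 tumours.

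**Figure D3:**
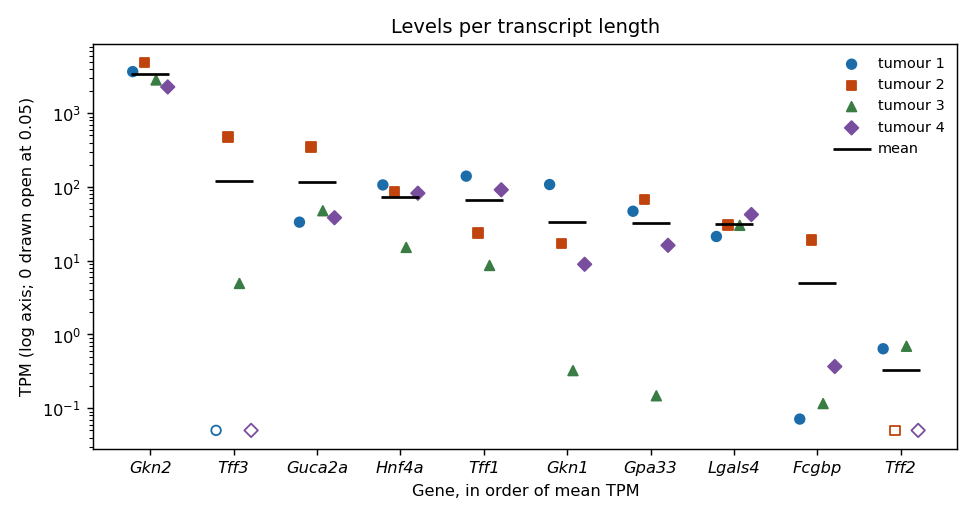
TPM on a log axis for the 10 genes in order of mean TPM, with each tumour as a point, the mean as a bar and values of 0 drawn open at the bottom. Gkn2 lies between 2275 and 4896 TPM in all 4 tumours, above every value of the other 9 genes.

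The cell makeup of the tumours was read from marker lists, whose part in these patterns was not tested. All 8 alveolar type 2 markers were above the floor. They summed to 32860 CPM in tumour 1, where Gkn1, Krt20 and Gata4 were highest, and to 53158 to 60875 CPM in the others. Sftpb and Abca3 were lowest in tumour 3 (6601 and 759 CPM), and the rest of that list was lowest in tumour 1. All 4 general epithelial genes (Epcam, Cdh1, Krt8, Krt18) summed to 3972, 2587, 2488 and 2632 CPM in tumours 1 to 4. Cdh1 lay between 842 and 887 CPM, while Epcam, Krt8 and Krt18 were highest in tumour 1. Epcam was lowest in tumour 3 with 218 CPM, and Krt8 and Krt18 were lowest in tumour 2. In tumour 3, where Hnf4a, Gkn1 and Gpa33 were low, the 5 leukocyte markers summed to 269 CPM against 114 to 156 in the other tumours. The 5 plasma cell markers summed to 137 CPM there against 20.8 to 30.7, and the 5 T cell markers to 20.6 against 6.04 to 6.18. The 5 macrophage markers summed to 235 CPM there against 111 to 141, and the 6 alveolar type 1 markers to 1969 against 1097 to 1710. The 6 ciliated markers summed to 42.7 CPM there against 18.8 to 36.4, and the 5 endothelial markers to 249 against 189 to 194. Of these, Hopx and Aqp5 were highest in tumour 4, Foxj1 and Kdr in tumour 2, and Ccdc39 and Cdh5 in tumour 1. The fibroblast sum was highest in tumour 1 (522 CPM). The T cell sum of tumour 3 was carried mostly by Cd2 (12.6 CPM), and Lck was lowest in that tumour with 2.34 CPM. The sum of the 6 club cell markers was 92.8 CPM in tumour 1 and 581 to 967 in the others. That difference was carried mostly by Scgb1a1, and not every marker was lowest in tumour 1. Scgb3a2 reached 5.28, 85.4, 14.6 and 20.8 CPM in tumours 1 to 4, and Scgb3a1 reached 4.07, 14.6, 3.33 and 5.35 CPM. Both were highest in tumour 2, as were Tff3, Fcgbp and Guca2a, and the rest of the club list was highest in tumour 3. The 6 squamous markers summed to 29.2 CPM in tumour 1, where Gkn1 was highest, and to 1.05 to 2.97 in the others. That sum was carried by Krt14 (21.02 CPM) and Krt6a (7.70 CPM), while Krt4, Krt13 and Trp63 were at 0 in tumour 1 and Trp63 was highest in tumour 4 with 1.07 CPM. When the genes were scaled to the 4 epithelial genes in place of the library, 7 of the 9 still had a 4-fold range, and Hnf4a, Gkn1 and Gpa33 were still lowest in tumour 3. On that scale the highest tumour for Hnf4a was tumour 2 in place of tumour 1, and that for Tff1 was tumour 4 in place of tumour 1. The range of Lgals4 was 3.14-fold on that scale, above the 2.16-fold of Gkn2.

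The wider gut programme was read from 4 lists of gut genes that are not among the 10. Of their 77 genes, 41 averaged 1 CPM or more, and 24 were at or under the floor in every tumour. Of the 41, 40 varied between tumours beyond counting noise (chi-square test against Poisson expectation, Benjamini-Hochberg adjusted over all 14225 genes), where 76.7% of all genes tested did. This test compares these libraries and not conditions. A 4-fold range was found for 26 of the 41, against the 8.15% of all genes, and the median range was 7.53-fold against 1.58-fold. Some of these lists were drawn up with results of the same tumours known, so their counts are not independent evidence.

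Of the markers of differentiated gut cells, some were at the floor and others were not. The acid pump subunit Atp4b, gastrin (Gast), intrinsic factor (Cblif) and the gland mucin Muc6 were at or under the floor in all 4 tumours. So were the enterocyte genes Fabp2, Sis, Lct, Slc26a3 and Cdhr5 and the goblet genes Clca1 and Zg16. The other acid pump subunit, Atp4a, had 6, 9, 7 and 2 counts, and products of differentiated cells such as pepsinogen C, ghrelin, villin and Muc2 were detected, with the values given next. Transcripts of a part of each programme were thus detected. Whether they came from gut-like, airway secretory, alveolar or other cells was not tested.

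Of the 21 gastric genes, 12 averaged 1 CPM or more, all 12 varied beyond counting noise and 7 had a 4-fold range. Anxa10, an annexin of gastric epithelium, was widest, with 0.880, 3.83, 0.494 and 9.75 CPM. Chia1, an acidic chitinase, reached 6.16, 8.60, 48.0 and 67.1 CPM, and Ghrl, which encodes ghrelin, reached 5.61, 6.50, 20.6 and 2.74 CPM. Both were above their level of tumours 1 and 2 in tumour 3, where Gkn1 was lowest. Capn8, a calpain of the stomach, had 0.990, 0.697, 4.20 and 1.19 CPM, and Pgc, the pepsinogen C gene, had 8.25, 2.21, 1.73 and 5.71 CPM. Pgc thus had the order of Tff1, with tumours 1 and 4 above tumours 2 and 3. Ghrl overlaps exons of antisense genes, so its count is uncertain.

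Of the 27 intestinal genes, 14 averaged 1 CPM or more, 13 varied beyond counting noise and 11 had a 4-fold range, with a median of 18.9-fold. Vil1, the microvillus protein villin, reached 90.7, 173, 5.92 and 91.9 CPM, 29.2-fold (21.9 to 39.8) from tumour 3 to tumour 2. Apoa1, an apolipoprotein of intestine and liver, reached 25.9, 24.97, 0.123 and 4.64 CPM. Krt20, a keratin of mature gut epithelium, reached 18.0, 2.67, 0.494 and 3.21 CPM, and Tm4sf20 reached 16.5, 7.78, 0.494 and 6.78 CPM. All 4 were lowest in tumour 3, as were Hnf4a, Gkn1 and Gpa33. Muc13, a transmembrane mucin, had 8.25 CPM in tumour 2 and at most 0.119 CPM elsewhere. With 3 counts as the floor, tumour 2 was 24.98-fold above tumour 1, and the exact two-sided 95% lower limit was 19.8. Vil1 and Muc13 overlap exons of genes on the opposite strand, so their counts are uncertain.

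Of the 14 mucus and goblet genes, 9 averaged 1 CPM or more, all 9 varied beyond counting noise and 5 had a 4-fold range. Agr2, a disulphide isomerase needed for mucin folding, reached 0.440, 30.3, 0.494 and 1.55 CPM, 68.9-fold (26.6 to 255) from tumour 1 to tumour 2. Spink4, a peptide of goblet cells, reached 0.770, 24.3, 0.247 and 0 CPM. With 3 counts as the floor, tumour 2 was 68.0-fold above tumour 4, and the exact two-sided 95% lower limit was 54.8. The gel-forming mucin Muc2 reached 0.770, 5.46, 0.617 and 1.07 CPM. The symbol Muc2 stood on 3 entries of the count table, and only the entry with the annotated identifier was used. Agr2, Spink4 and Muc2 were, like Tff3 and Fcgbp, at least 4-fold higher in tumour 2 than in any other tumour. Muc5ac reached 1.21, 12.8, 4.32 and 5.23 CPM. Muc5b, a gel-forming mucin of airways, reached 2.20, 197, 36.03 and 80.8 CPM and was lowest in tumour 1, where the sum of the club cell markers was also lowest.

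Tumour 3 alone was at least 4-fold low for 6 of the 41 genes (Vil1, Apoa1, Krt20, Olfm4, Tm4sf20 and Foxa3), a pattern of 0.808% of all genes tested. Tumour 2 alone was as far above the rest for 5 (Muc13, Muc2, Agr2, Spink4 and Onecut2), a pattern of 0.239%. Tumour 1 alone was high for Krt20, Reg4 and Gata4 (0.394% of all genes) and low for Muc5b (0.366%). The lowest value of a gene lay in tumours 1, 2, 3 and 4 for 14, 4, 20 and 3 of the 41 genes, where the shares of all genes tested were 30.3%, 19.4%, 32.6% and 17.7%. The highest value lay in tumours 1 to 4 for 12, 15, 5 and 9 genes, where the shares of all genes were 31.4%, 20.4%, 30.1% and 18.0%.

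**Figure D4:**
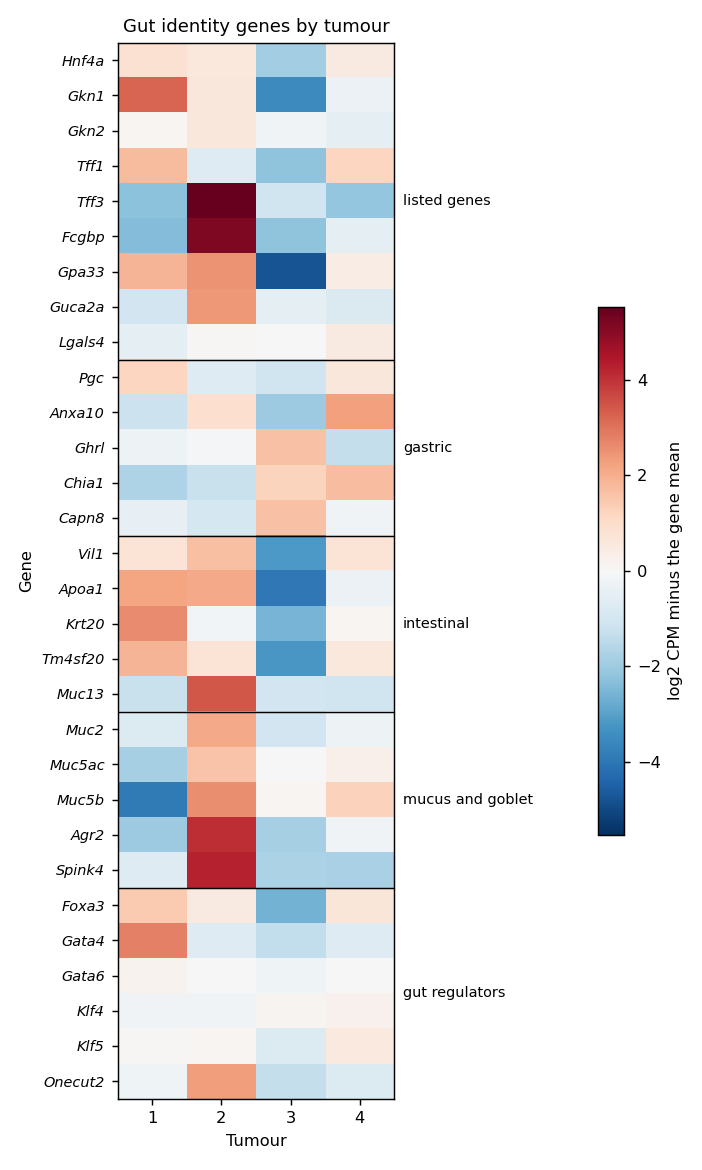
Log2 CPM of each gene in each tumour minus the mean of that gene over the 4 tumours, for 9 of the 10 genes (Tff2 was at the floor) and the named genes of the 4 gut lists. Blue blocks in tumour 3 cover Hnf4a, Gkn1, Gpa33, Vil1, Apoa1, Krt20, Tm4sf20 and Foxa3, and red blocks in tumour 2 cover Tff3, Fcgbp, Guca2a, Muc13, Muc2, Agr2, Spink4 and Onecut2.

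Regulators of gut and of lung were read next, and the difference between these lists was not tested. Of the 15 gut regulators, 6 averaged 1 CPM or more, all 6 varied beyond counting noise and 3 had a 4-fold range. The intestinal master regulators Cdx1 and Cdx2, the antral and duodenal regulator Pdx1, the Hnf4a paralogue Hnf4g, Isx and the gastric regulator Barx1 were at or under the floor in all 4 tumours. Foxa3, a forkhead factor of gut and liver, reached 20.8, 10.7, 1.23 and 12.3 CPM. As for Hnf4a, tumour 1 was highest and tumour 3 lowest, 16.9-fold apart (8.96 to 35.7).

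Gata4, a GATA factor of stomach and upper intestine, reached 6.71, 0.581, 0.247 and 0.595 CPM, and its ratio of tumour 1 to tumour 3 was 27.2 with a counting interval of 7.21 to 229.6. It was high in tumour 1 alone, where Gkn1 was also high. Gata6, its paralogue in lung and gut, reached 87.1, 77.5, 64.4 and 75.9 CPM and so was nearly level. Gata6 overlaps exons of a gene on the opposite strand, so its count is uncertain. Onecut2 reached 3.41, 19.98, 1.60 and 2.38 CPM and was high in tumour 2 alone. Klf4 lay between 13.97 and 18.8 CPM and Klf5 between 12.0 and 29.3 CPM. Both had their highest tumour at most 2.44-fold above their lowest.

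Of the 10 lung regulators, 9 averaged 1 CPM or more, all 9 varied beyond counting noise and only Sox9 had a 4-fold range. Nkx2-1, the regulator of lung identity, reached 289.8, 306, 291 and 396 CPM and was thus present at a like level in tumour 3, where Hnf4a was lowest, and in tumour 1, where it was highest. Its transcripts share near-identical stretches with those of 39 other genes, so its count is uncertain. Foxa1 and Foxa2, forkhead factors of lung and gut, lay between 56.4 and 91.8 CPM and between 61.1 and 72.4 CPM. Sox9, a factor of the distal lung bud, reached 29.9, 51.9, 8.89 and 34.7 CPM, with tumour 3 lowest. Cebpa reached 326, 348, 207 and 341 CPM. Foxp1 lay between 94.5 and 149 CPM, Foxp2 between 41.1 and 69.4, Etv5 between 147 and 261 and Id2 between 429.7 and 654. Cebpa and Foxp1 overlap exons of other genes, and Foxp2 and Etv5 share near-identical stretches with other genes, so these counts are uncertain. The median range of the 9 was 1.63-fold, near the 1.58-fold of all genes.

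**Figure D5:**
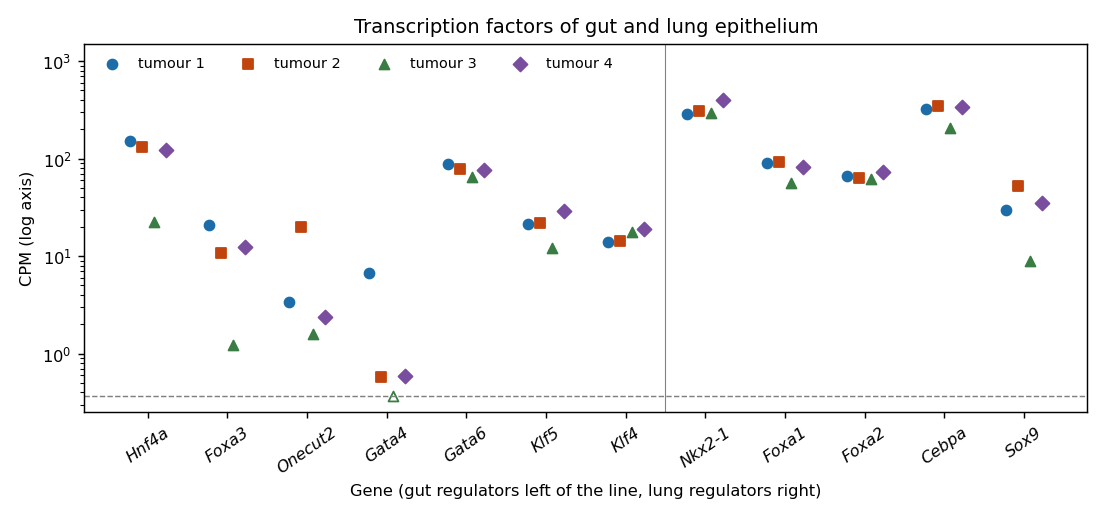
CPM on a log axis of Hnf4a and of gut and lung regulators in each of the 4 tumours, with a dashed line at the floor of 3 counts and values at or under it drawn open on the line. Hnf4a and Foxa3 drop in tumour 3, while Nkx2-1 stays between 289.8 and 396 CPM and Foxa2 between 61.1 and 72.4 CPM.

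For each of the 9 genes, the most similar genes were sought among the 10269 averaging 10 CPM or more, by the root mean square difference of log2 CPM centred on the mean over the 4 tumours. With 4 tumours many genes can match closely, and the genes named were chosen for the likeness. Nearest to Hnf4a was Afp, the fetal liver protein alpha-fetoprotein, with 76.1, 61.6, 11.5 and 59.8 CPM and a difference of 0.047. Next were Fras1 (0.12) and Mtmr11 (0.13). Nearest to Gpa33 was Apoa1 (0.60), followed by Bche (0.81) and Greb1 (0.99). Bche, which encodes butyrylcholinesterase, was also nearest to Gkn1 (0.75) with 79.99, 50.9, 0.740 and 23.8 CPM, followed by the imprinted gene Peg10 (0.79) and Apoa1 (0.93). Gpa33 and Gkn1 thus had 2 of their 3 nearest genes in common.

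Nearest to Tff1 were Cdh3 (0.45), which encodes P-cadherin, P2rx2 (0.48) and Ddah1 (0.49). Nearest to Guca2a was Pf4 (0.13), the platelet factor 4 gene, with 15.8, 199, 30.5 and 21.8 CPM, then Spink5 (0.46) and Stc1 (0.52). Among the genes searched, Fcgbp was followed only loosely, by Gm830 (1.16), the airway secretory protein gene Bpifa1 (1.28) and Ryr3 (1.35). Bpifa1 reached 9.68, 435, 27.5 and 71.5 CPM. Tff3 had no close match among them, since its nearest were Gm7331 (2.24), Gm15710 (2.29) and Cd177 (2.42). Genes averaging under 10 CPM were not searched. Agr2, Spink4 and Muc2, also high in tumour 2 alone, were among those left out, so closer matches may exist. This difference scales with the range of the gene itself, so the genes of narrowest range had small values by construction. Gkn2 was nearest to BC030867 (0.070), Synj2 (0.076) and Loxl3 (0.087), and Lgals4 to Tcp11l2 (0.033), Senp7 (0.035) and Smim1 (0.054).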

How the data were processed

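RNA of 4 lung tumours (1 group) was sequenced from stranded polyadenylated libraries made from 500 ng of RNA. Per the labels, bcl2fastq 2.17, cutadapt 1.4.2, HISAT2, featureCounts 1.4.4 and edgeR were used, with mm10. The authors deposited raw counts per Ensembl gene, and a log2 table of normalised values, whose 156068 values were all given back to 1e-06 by the voom formula and which served as an alternative. The strand setting and annotation release are not given in the sources used here.

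The members and gene lists were chosen with earlier results of these data known. All members are named, with gut and lung regulators averaging 1 CPM or more, the 5 widest genes of each other gut list and the 3 nearest genes to each member. CPM used TMM sizes (edgeR 4.0.16, R 4.3.3), and log2 CPM had 0.5 added to counts and 1 to sizes. For ranges and for folds against 0, counts under 3 were raised to 3, while ratios to 1 or 2 counts are given with their counting interval. Intervals are exact Poisson or binomial at 95%. The chi-square test had 3 degrees of freedom and an adjusted p under 0.05 as its call (SciPy 1.17.1), and was tested on simulated data. Positions and lengths are those of GENCODE M21 on GRCm38, which held 37693 of 39017 identifiers. All 163 list entries were matched, 7 by identifier, and some regulators are not reported here. Near-identical copies were stretches of at least 80 nt at 97% identity (BLAST 2.17.0).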

Additional observations from a re-analysis of the deposited data

Results flagged for a closer look

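Over the 15 gut and lung regulators averaging 1 CPM or more, a tumour whose gap to its nearest neighbour, over the whole range of log2 CPM, passed Dixon's limit for 4 samples was found for 1 gene, where chance passes 0.75. Cebpa was low in tumour 3 with 207 CPM and a gap ratio of 0.877. It is given as a value, and the cause was not tested. Cebpa overlaps exons of an antisense gene, so its count is uncertain. The 10 genes of the report and the widest genes of the other lists were picked by their values and were left out.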

How the results depend on the processing

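The count of 7 genes with a 4-fold range was kept with other library scaling (total count, DESeq2 1.42.0 size factors, the deposited sizes). It was also kept with another added count and with scaling to 4 epithelial genes. On the epithelial scale the highest tumour changed for Hnf4a and Tff1, as given above. Of all values recomputed, 13 moved by more than the SD between tumours or, for counts, by over 1.5 times, and 109 moved less, which for genes of wide spread can still be a large change. Leaving out each tumour gave 4 to 7 genes with a 4-fold range and 5 to 7 above the floor in every tumour. Of the 46 to 50 related genes then tested, 17 to 24 had a 4-fold range, as did 4.32% to 7.21% of all genes. Beyond counting noise were 42 to 45 of them, as were 62.2% to 71.8% of all genes. The 4 members came without tumour 2, and the 17 related genes without tumour 3. With a mean CPM of at least 10, 9 of 27 related genes had a 4-fold range in place of 27 of 50 (all 5 lists), where 3.60% of all genes did. All 27 were beyond counting noise, in place of 49 of 50. Of all genes, 85.3% were, in place of 76.7%. The share of related genes with a 4-fold range was 33.3% in place of 54%, and the cause was not tested. Log2 ranges without tumour 2 included those of Tff3 (1.17), Fcgbp (1.85) and Guca2a (0.57). Without tumour 3 they were 0.31 for Hnf4a, 2.07 for Gpa33, 3.53 for Gkn1 and 2.47 for Tff1, and without tumour 1 that of Gkn1 was 4.16. With 0.5 added to each count that of Tff3 was 10.38 in place of 7.80. With the longest transcript as the length, 8 of 10 genes kept their place by TPM, and Lgals4 and Gkn1 changed places. No paired analysis was possible because the design has 1 group. Depth limits the values of Tff2 and of genes with counts near 3.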
